A study of Homo sapiens with 8 samples.

Results

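The genes described here encode the subunits of the mitochondrial respiratory chain and of ATP synthase, from both the mitochondrial and the nuclear genome. They were the rows of the count table whose symbols begin with the stems used for these proteins (MT-ND, MT-CO, MT-ATP and MT-CYB, and nuclear NDUF, SDH, UQCR, COX4 to COX8 and ATP5 symbols), with rows named as pseudogenes left out. The rule found 104 rows of the 57169 in the table: 13 genes of the mitochondrial chromosome and 91 nuclear rows. Of the nuclear rows, 78 were subunit rows, 7 were isoforms used in particular tissues, 1 was a retrocopy (UQCRHL) and 5 were antisense, divergent or readthrough transcripts. The filter on low counts kept 96 of the 104 rows: all 13 mitochondrial genes, 77 of the 78 nuclear subunit rows (ATP5MGL did not pass), 3 of the 7 isoforms, UQCRHL and 2 of the 5 remaining rows.

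RNA came from SW620 and HCT116, human colorectal carcinoma cell lines, of which SW620 derives from a metastasis in a lymph node. The 4 groups were SW620 cells given AFZC, SW620 cells given 5-fluorouracil (5-FU), HCT116 cells given AFZC and HCT116 cells given 5-FU, with 2 libraries each. Every group was treated for 24 hours at the IC50 dose of its agent and line, and all groups received a form of 5-FU: per the series title, AFZC is a metal-organic framework nanodrug that carries 5-FU and bears an aptamer. Untreated cells were not analysed here, so each change under AFZC is relative to free 5-FU, the inhibitor of thymidylate synthase.

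The respiratory chain passes electrons from NADH and succinate to oxygen and pumps protons across the inner mitochondrial membrane, and ATP synthase (complex V) uses the proton gradient to make ATP. Complexes I, III, IV and V are built from subunits of both genomes, while complex II (succinate dehydrogenase) is wholly nuclear. The mitochondrial mRNAs are cut from long transcripts of the mitochondrial chromosome, whereas each nuclear subunit has a promoter of its own. Leakage of electrons from complexes I and III is a known source of reactive oxygen species.

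Libraries held 31991561 to 40590291 counts, and normalisation (TMM) factors ran from 0.816 to 1.11, with the lowest in the 2 libraries of SW620 under 5-FU (0.867 and 0.816). These libraries also had the fewest genes with counts, 24744 and 24427, against 26500 to 28340 in the remaining libraries. The 8 epithelial markers summed to 5013 to 5460 TMM-scaled CPM (counts relative to the size of the library) in SW620 under AFZC, 15185 to 16521 in SW620 under 5-FU, 4884 to 7940 in HCT116 under AFZC and 3498 to 4325 in HCT116 under 5-FU, with CDX1 at no more than 0.225 CPM anywhere and VIL1 at no more than 1.96 CPM in HCT116. The 4 leukocyte markers summed to 15.8 and 40.7 CPM in SW620 under AFZC and to 5.47 and 7.85 CPM in SW620 under 5-FU. Nearly all of this was LYZ. In HCT116 the 4 summed to 0.0554 to 0.224 CPM, and LYZ was at 0 to 0.224 CPM there. PTPRC, CD3E and CD68 stayed at or below 0.253 CPM in all libraries. The 4 fibroblast markers summed to 40.1 to 71.5 CPM and the 3 endothelial markers to 3.14 to 18.3 CPM, and the part of these markers in the results below was not tested. In bulk RNA, fewer cells with a transcript and less of it per cell cannot be told apart. No label ties the 2 libraries of a group to separate cultures, and p-values therefore rest on library-to-library spread that may be technical.

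Mitochondrial transcripts were far more abundant than nuclear ones, and more so in HCT116. The 13 mitochondrial genes took 3.81% and 3.07% of all counts in SW620 under AFZC and 4.24% and 3.45% in SW620 under 5-FU. In HCT116 they took 10.2% and 9.29% under AFZC and 8.72% and 8.33% under 5-FU. All 4 SW620 libraries thus lay below all 4 HCT116 libraries, while the AFZC and 5-FU libraries of SW620 overlapped and those of HCT116 did not. As a share of library totals, the 78 nuclear subunit rows held nearly the same part everywhere, 0.574% and 0.551% in SW620 under AFZC, 0.558% and 0.539% in SW620 under 5-FU, 0.548% and 0.573% in HCT116 under AFZC and 0.603% and 0.527% in HCT116 under 5-FU. Summed counts per kilobase of gene length were 15.3 and 13.3 times as high for the mitochondrial as for the nuclear rows in SW620 under AFZC and 19.4 and 16.3 times in SW620 under 5-FU. The same ratio was 42.8 and 38.9 in HCT116 under AFZC and 35.5 and 39.8 in HCT116 under 5-FU. The ratio therefore separated the lines without overlap, and within SW620 its AFZC libraries lay below its 5-FU libraries. On the TMM scale used in the tests, the summed level of the 13 mitochondrial rows was 34269.9 and 28607 CPM in SW620 under AFZC, against 48851 and 42238 CPM under 5-FU, and that of the nuclear rows was 5162 and 5139 CPM, against 6433 and 6598 CPM. On that scale neither sum overlapped between the agents in SW620, so the overlap of shares above depends on the scaling. These shares, sums and ratios were not tested.

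**Figure D1:**
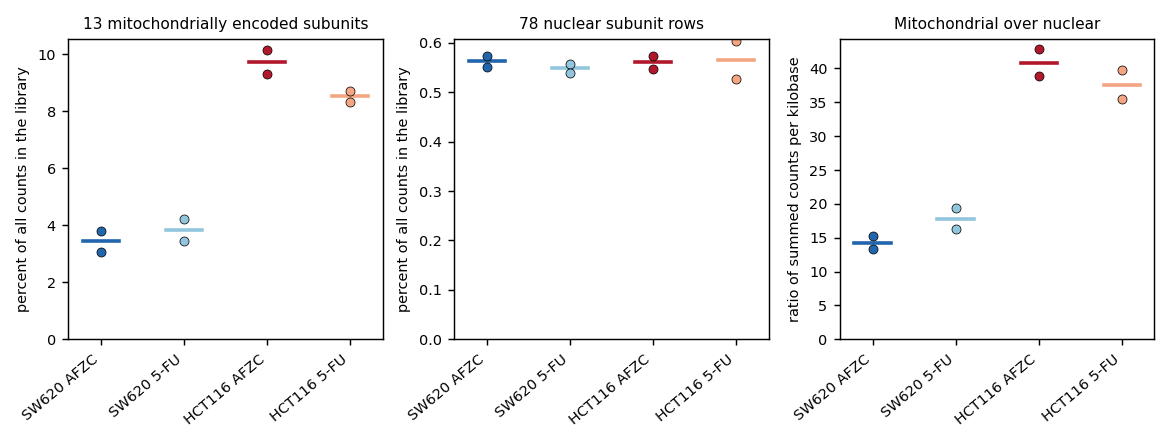
Share of all counts held by the 13 mitochondrially encoded subunits (left, percent) and by the 78 nuclear subunit rows (middle, percent), and the ratio of their summed counts per kilobase (right); points are libraries, bars are means of 2. The mitochondrial share lies between 3.07% and 4.24% in SW620 and between 8.33% and 10.2% in HCT116, while the nuclear share stays between 0.527% and 0.603%.

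Within the mitochondrial genome, levels per kilobase differed widely between genes. MT-CO1, the catalytic subunit of complex IV, was the highest in all 4 groups, at 7323 CPM per kilobase in SW620 under AFZC, 8215 in SW620 under 5-FU, 17393 in HCT116 under AFZC and 16040.2 in HCT116 under 5-FU. MT-ATP8, a small membrane subunit of complex V, was the lowest, at 45.2, 117, 144 and 137 CPM per kilobase in the same order. The highest nuclear subunit was ATP5F1B, the catalytic beta subunit of complex V, at 290.4, 391, 268 and 245 CPM per kilobase, above MT-ATP8 in every group. Per complex, the nuclear rows with the most counts per kilobase were NDUFS5 for complex I (mean of all libraries 145 CPM per kilobase), SDHB for complex II (30.3), UQCRH for complex III (105), COX8A for complex IV (89.1) and ATP5F1B for complex V (299). The deposited gene lengths are unions of all annotated exons, so a nuclear gene with long rare exons is given a low level per kilobase.

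MT-ATP8 shares part of its sequence with its neighbour. Its gene (GRCh38, mitochondrial chromosome, 8366 to 8572, forward strand, 207 bases, all coding) shares its last 46 bases (8527 to 8572, in capitals) with the start of MT-ATP6, the proton-channel subunit a of complex V, and the sequence is shown because reads that touch the shared bases can be assigned to a single gene only by a rule:
MT-ATP8: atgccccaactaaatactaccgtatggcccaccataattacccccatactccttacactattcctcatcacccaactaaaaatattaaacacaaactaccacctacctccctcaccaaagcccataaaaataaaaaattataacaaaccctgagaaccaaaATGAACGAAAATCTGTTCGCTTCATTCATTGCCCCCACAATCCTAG
The overlap covers 22.2% of the MT-ATP8 row but 6.9% of the MT-ATP6 row, counting also the base that MT-ATP6 shares with MT-CO3. The table held 307 and 361 counts for MT-ATP8 in SW620 under AFZC against 524 and 1012 under 5-FU, and 1202 and 1000 in HCT116 under AFZC against 968 and 1021 under 5-FU. Its counts were thus the fewest of the 13 by a wide margin, and how overlapping reads were treated is not given in the sources used here. MT-ND4L shares 2.36% of its row with MT-ND4, and the 8 mitochondrial members not named in this paragraph share no exon bases with another row.

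**Figure D2:**
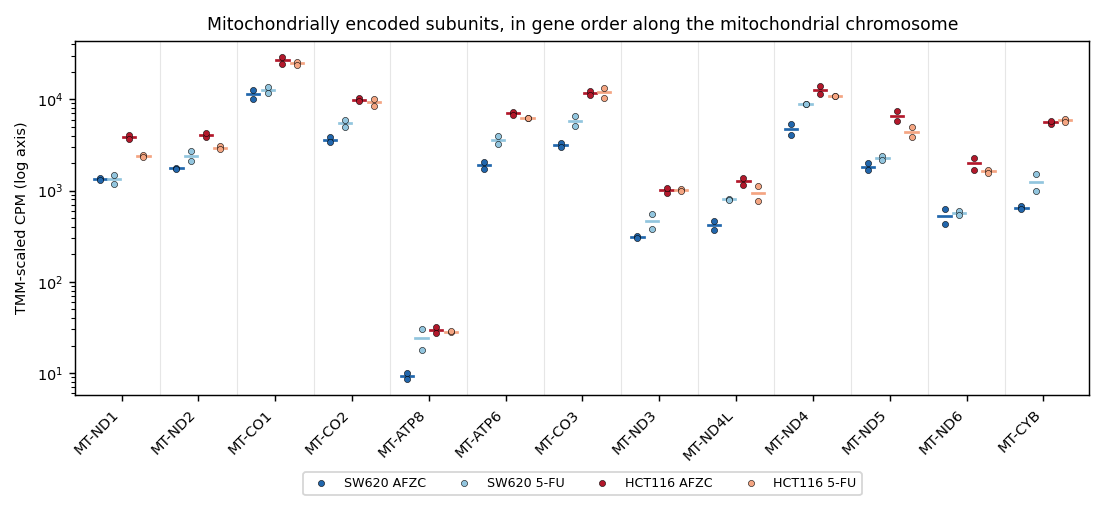
TMM-scaled CPM (log axis) of the 13 mitochondrially encoded subunits in each of the 8 libraries, in gene order; points are libraries, bars are means of 2. MT-CYB shows the widest gap between the lines, and MT-ATP8, MT-ATP6, MT-CO3, MT-ND4L, MT-ND4 and MT-CYB lie lower in SW620 under AFZC than under 5-FU.

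The comparison of AFZC with 5-FU in SW620 asked how the nanodrug changed these genes in that line. A call is an adjusted p under 0.05 in edgeR's quasi-likelihood test with Benjamini-Hochberg adjustment over all genes. Of the 13 mitochondrial genes, 6 fell, against 6.95% of all 21378 genes tested called lower and 11.6% called higher. The 6 were both complex V genes (MT-ATP8 and MT-ATP6), MT-CO3 of complex IV, MT-CYB of complex III, and MT-ND4 and MT-ND4L of complex I. MT-ATP8 and MT-ATP6 overlap, as do MT-ND4L and MT-ND4, and each was counted as a row of its own. The 6 are therefore rows and not separate transcripts. No mitochondrial member was called higher by edgeR or DESeq2, and none was higher at an unadjusted p under 0.05 (0 of 13 in each case). All 13 fitted log2 fold changes were negative (9 of 13 when libraries were scaled by their totals alone), with a median of -0.60 beside 0.026 over all genes.

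MT-ATP6 was at 2042 and 1721 CPM in SW620 under AFZC, against 3948 and 3243 CPM under 5-FU. Its log2 fold change was -0.93 ± 0.20 (SE) with an adjusted p of 0.00678 in edgeR. MT-ATP8 was at 8.64 and 10.1 CPM under AFZC, against 18.0 and 30.6 CPM under 5-FU, a change of -1.38 ± 0.24 (SE, adjusted p = 0.00193, edgeR). In both genes the AFZC libraries lay below both 5-FU libraries, and for MT-ATP8 the 5-FU libraries differed widely from each other. MT-CO3, a structural subunit of the complex IV core, was at 3312 and 2996 CPM under AFZC, against 6509 and 5106 CPM under 5-FU (-0.88 ± 0.22 log2, adjusted p = 0.0152, edgeR). MT-CYB, the cytochrome b of complex III, was at 673 and 624 CPM under AFZC, against 1512 and 979 CPM under 5-FU (-0.94 ± 0.22 log2, adjusted p = 0.0112, edgeR). The groups did not overlap for either gene.

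MT-ND4 and MT-ND4L encode proton-pumping parts of the membrane arm of complex I and lie next to each other on the mitochondrial chromosome. MT-ND4 was at 5307 and 4079 CPM in SW620 under AFZC, against 8831 and 8954 CPM under 5-FU (-0.92 ± 0.22 log2, adjusted p = 0.011, edgeR). MT-ND4L was at 461 and 369.7 CPM under AFZC, against 814 and 792 CPM under 5-FU (-0.95 ± 0.21 log2, adjusted p = 0.00753, edgeR). Both AFZC libraries were below both 5-FU libraries for each. The 7 mitochondrial genes that did not pass the test had log2 fold changes from -0.60 (MT-CO2, adjusted p = 0.063) and -0.59 (MT-ND3, adjusted p = 0.0539) to -0.0056 (MT-ND1). For MT-ND1, MT-CO1 and MT-ND6 the AFZC and 5-FU libraries overlapped: MT-ND1 was at 1359 and 1299 CPM under AFZC and 1477 and 1191 CPM under 5-FU.

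The scaling of libraries and single libraries moved the SW620 calls. With libraries scaled by their totals alone, the median log2 fold change of all genes in SW620 moved to 0.40 and the calls over all genes moved to 5132 higher and 445 lower, beside 2482 higher and 1486 lower with TMM. The mitochondrial median became -0.22 and only 1 of 13 (MT-ATP8) was called lower. Relative to the median of all genes, the mitochondrial median was -0.62 under either scaling. A change of scaling moves all genes by nearly the same amount, so this equality was fixed in advance and is no sign of a stable result. Without the first 5-FU library of SW620, 2 of the 13 were called lower (MT-ATP8 and MT-ND4L), and adjusted p-values of the 4 lost calls were 0.0773 for MT-ATP6, 0.143 for MT-CO3, 0.0575 for MT-ND4 and 0.163 for MT-CYB. MT-ND4 was also lost without the second AFZC library (0.0605) and without the second 5-FU library (0.0781), and MT-CO3 without the second AFZC library (0.0569).

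Among the 77 nuclear subunit rows tested in SW620, 8 fell and 1 rose, to be read against the 6.95% of all genes called lower and 11.6% called higher. The 8 were ATP5MC2, ATP5F1D, ATP5F1E and ATP5F1A of complex V, COX7A2L and COX7C of complex IV, UQCRB of complex III and NDUFB4 of complex I, and the one that rose was NDUFA8 of complex I. The median log2 fold change of the 77 was -0.24, with 61 negative and 16 positive. Scaled by library totals alone, 21 were negative and this median changed sign to 0.13, with 4 rows called lower and 9 higher. The calls of COX7A2L, ATP5F1E, NDUFB4 and ATP5F1A were lost with that scaling, at adjusted p of 0.0560 to 0.463 in edgeR. Relative to all genes the nuclear median was -0.27 under either scaling, again an equality fixed in advance. The count called lower was 5 without the first AFZC library, 5 without the first 5-FU library and 4 without the second.

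ATP5MC2, one of the genes for the same mature c subunit of the ATP synthase rotor, was at 116 and 129.6 CPM in SW620 under AFZC, against 249 and 256 CPM under 5-FU (-1.04 ± 0.17 log2, adjusted p = 0.00154, edgeR). ATP5F1D, the delta subunit of the central stalk, was at 52.3 and 60.1 CPM under AFZC, against 103 and 114 CPM under 5-FU (-0.95 ± 0.16 log2, adjusted p = 0.00169, edgeR). The AFZC libraries were about as far below the 5-FU libraries in both genes, with little spread within groups. UQCRB, a small subunit near the ubiquinone site of complex III, was at 62.2 and 63.5 CPM under AFZC, against 110.4 and 121 CPM under 5-FU (-0.88 ± 0.15 log2, adjusted p = 0.00153, edgeR). COX7C, a small membrane subunit of complex IV, was at 104 and 95.1 CPM under AFZC, against 175 and 180.0 CPM under 5-FU (-0.84 ± 0.15 log2, adjusted p = 0.00251, edgeR). The calls of these 4 genes held when each SW620 library was left out in turn.

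COX7A2L, which takes part in forming supercomplexes with complex III, was at 46.9 and 82.9 CPM in SW620 under AFZC, against 116 and 139 CPM under 5-FU (-0.97 ± 0.23 log2, adjusted p = 0.0117, edgeR). Its AFZC libraries differed from each other by more than those of the genes above, and the call was lost without the first of them (adjusted p = 0.0572) and without the second 5-FU library (0.103). ATP5F1E, the epsilon subunit of the central stalk, was at 97.8 and 86.6 CPM under AFZC, against 136 and 141 CPM under 5-FU (-0.58 ± 0.14 log2, adjusted p = 0.0147, edgeR), and 23.2% of its row overlaps TUBB1. Its call was lost without the second AFZC library (0.0678) and without either 5-FU library (0.0683 without the first and 0.112 without the second). ATP5F1A, the alpha subunit of the catalytic head, was at 173 and 166 CPM under AFZC, against 256 and 239 CPM under 5-FU (-0.54 ± 0.16 log2, adjusted p = 0.0284, edgeR), and lost its call when any 1 of the 4 SW620 libraries was left out (0.0777 to 0.166). NDUFB4, an accessory subunit of the membrane arm, changed by -0.56 ± 0.16 on the log2 scale (adjusted p = 0.0297, edgeR) and lost its call without 3 of the 4 libraries (the first AFZC library and either 5-FU library, 0.0948 to 0.185).

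NDUFA8, an accessory subunit of complex I that is folded in the intermembrane space, was the only nuclear member called higher in SW620. It was at 65.4 and 50.8 CPM under AFZC, against 41.7 and 34.8 CPM under 5-FU (0.60 ± 0.18 log2, adjusted p = 0.0339, edgeR). Its call was lost without the first AFZC library (0.209) and without either 5-FU library (0.0628 without the first and 0.269 without the second). The remaining nuclear members with the most counts per kilobase did not pass the test: ATP5F1B was at 661 and 688 CPM under AFZC and 913 and 904 CPM under 5-FU (adjusted p = 0.0845 in edgeR, and 0.0327 in DESeq2, which called it), UQCRH at 131 and 123 CPM and 156 and 172 CPM (0.127). COX8A (0.642) and NDUFS5 (0.837) differed by less, at 0.16 and -0.063 on the log2 scale.

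**Figure D3:**
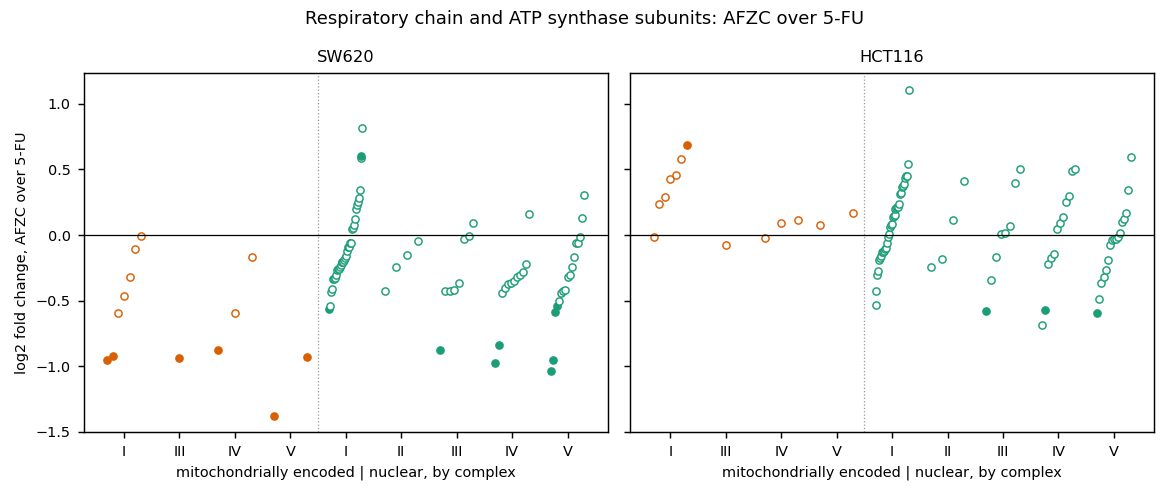
Log2 fold change of AFZC over 5-FU for every tested subunit gene in SW620 (left) and HCT116 (right), mitochondrially encoded genes in orange and nuclear genes in green, by complex; filled points passed the test (adjusted p under 0.05). In SW620 all 13 mitochondrial points are negative (9 of 13 with libraries scaled by totals alone) and 6 are filled, while in HCT116 1 is filled, MT-ND1, above zero.

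In HCT116 the same comparison gave a different picture for the mitochondrial genes. MT-ND1, a complex I subunit at the ubiquinone channel, was the 1 of 13 that rose, and 5.87% of all genes tested were called higher and 3.74% lower. It was at 4069 and 3659 CPM in HCT116 under AFZC, against 2453 and 2345 CPM under 5-FU, without overlap (0.69 ± 0.19 log2, adjusted p = 0.0362, edgeR). This call was lost without the first AFZC library (adjusted p = 0.168) or either 5-FU library (0.182 without the first and 0.190 without the second). MT-ND5, another proton-pumping subunit, was at 7519 and 5737 CPM under AFZC and 3854 and 5016 CPM under 5-FU (0.58 ± 0.22 log2, adjusted p = 0.117 in edgeR), and DESeq2 called it higher (adjusted p = 0.0307). The 13 log2 fold changes ran from -0.074 (MT-CYB) to 0.69, with a median of 0.17 and 10 of them positive. None of the 13 was called lower by edgeR or DESeq2, or at an unadjusted p under 0.05 (0 of 13 in each case).

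Of the 77 nuclear rows in HCT116, 3 fell, a share close to that of all genes, and the median log2 fold change was 0.013. None rose in edgeR (0 of 77), where 8 were higher at an unadjusted p under 0.05, and DESeq2 called 1 higher. The 3 that fell were ATP5MC2, COX7C and UQCRB, which also fell in SW620, in libraries that the HCT116 comparison does not share. ATP5MC2 was at 73.2 and 54.6 CPM in HCT116 under AFZC, against 106 and 86.8 CPM under 5-FU (-0.59 ± 0.17 log2, adjusted p = 0.0495, edgeR). COX7C was at 110.3 and 123 CPM under AFZC, against 188 and 159 CPM under 5-FU (-0.57 ± 0.15 log2, adjusted p = 0.032, edgeR). UQCRB was at 81.4 and 90.1 CPM under AFZC, against 137 and 119.8 CPM under 5-FU (-0.58 ± 0.15 log2, adjusted p = 0.0249, edgeR). The AFZC libraries were below the 5-FU libraries for all 3, yet each call was lost without either 5-FU library (adjusted p of 0.0621 to 0.355), and 1 AFZC library also decided each: the first for COX7C (0.175) and UQCRB (0.145) and the second for ATP5MC2 (0.202). The count called lower was 1 without the first AFZC library and 0 without either 5-FU library.

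**Figure D4:**
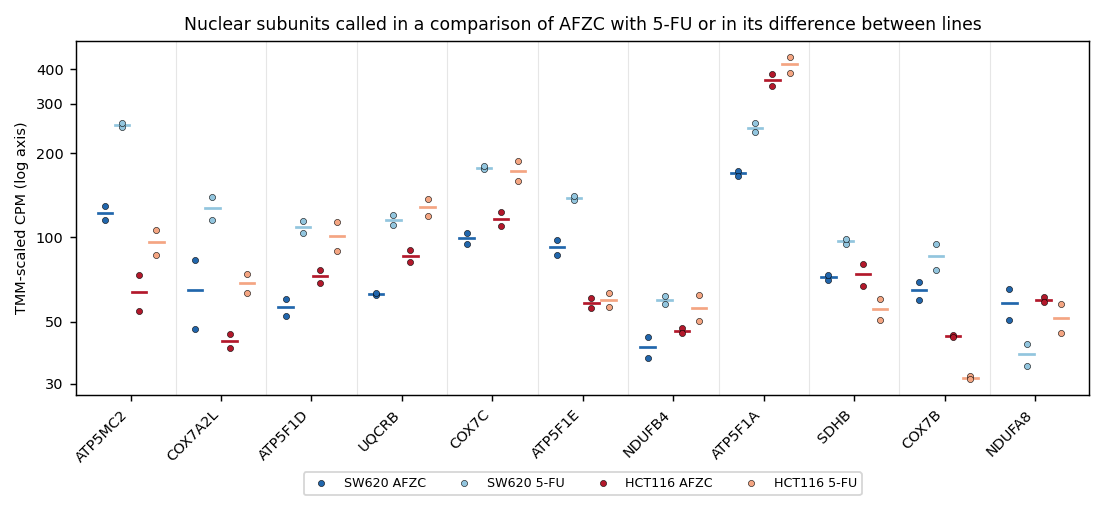
TMM-scaled CPM (log axis) of the 11 nuclear subunits that passed the test in a comparison of AFZC with 5-FU or in the difference between lines, in each of the 8 libraries; points are libraries, bars are means of 2. ATP5MC2, UQCRB and COX7C lie lower under AFZC in both lines, and SDHB lies lower under AFZC in SW620 and higher in HCT116.

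Start sites of the nuclear subunits were then described. RefSeq promoter entries (GRCh38.p14) matched 62 of the 78 nuclear subunit rows, and the first entry listed per gene was used. The windows below run from 20 bases before to 10 bases from the start site on, 5′ to 3′, and are shown because these are the nuclear subunits called in SW620, other than UQCRB and ATP5F1D. Capitals mark the first transcribed base of the RefSeq entry and, where that base begins a run of C or T, the run. These starts are annotated and were not measured in these cells. The 5′ end of the GENCODE gene differs for each printed gene. It is 42425088 against 42361217 in RefSeq for COX7A2L, and 86617904 against 86617941 for COX7C. The run depends on the exact start base. They lie at chr12:53676074-53676103 (ATP5MC2, reverse strand), chr2:42361208-42361237 (COX7A2L, reverse), chr5:86617921-86617950 (COX7C, forward), chr20:59032326-59032355 (ATP5F1E, reverse), chr3:120596316-120596345 (NDUFB4, forward), chr18:46104218-46104247 (ATP5F1A, reverse) and chr9:122159770-122159799 (NDUFA8, reverse).
ATP5MC2: tcgctcttcccgctgctccgCCCCTCTCTg
COX7A2L: cacagccggggaggcggggtCCTTCTCTgg
COX7C: ccgccccatttcccatctttCTTTTCagtc
ATP5F1E: ttccgcttctgtggtctgatCTTCCTgcgg
NDUFB4: ggcctcagaatcgcgcaggcGcaattgtgc
ATP5F1A: ggctggtcgaaggctctggcAttgcaagcc
NDUFA8: ctgcgtgttgccggatgcgcAtgcgcaggc

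The first 4 of these starts, all of genes that fell in SW620, opened with C and at least 4 further C or T, a layout known from the mRNAs of ribosomal proteins and other parts of the translation machinery. It was looked for after the values had been seen, so its counts are a description. The layout was present in 9 of the 62 nuclear subunits with an entry (14.5%) and in 1104 of 27305 genes with an entry (4.04%). The 9 were ATP5MC2, COX7A2L, COX7C, ATP5F1E, COX4I1, UQCRH, ATP5PO, ATP5MG and NDUFC1. Their log2 fold changes in SW620 ran from -1.04 to -0.016 with a median of -0.36, beside a median of -0.20 in the 53 without it. The 4 printed genes among them were chosen for their SW620 calls, so the SW620 comparison was partly fixed by that choice. Those not printed were at -0.36 (UQCRH), -0.35 (COX4I1), -0.16 (NDUFC1), -0.064 (ATP5PO) and -0.016 (ATP5MG) in SW620, and none was called there. In HCT116 the 9 ran from -0.68 to 0.59 with a median of -0.32, beside 0.071 in the 53 without the layout. There, 7 of the 9 were negative. ATP5MG and NDUFC1 were the positive ones there, at 0.59 and 0.36. The SW620 signs move with the scaling of libraries, as for all 77 rows.

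Motifs of factors known for nuclear respiratory genes were counted on both strands of the 300-base entries. The NRF1 motif (GCGCA, any base, GCGC) was in 15 of the 62 members (24.2%) and in 6.28% of the 27305 genes. The YY1 motif AANATGGC was in 22 (35.5%), against 6.82%, and the ETS family motif CCGGAAGT in 9 (14.5%), against 4.44%. The 27305 genes again include genes not tested here, so these shares are not matched for expression. Of the printed genes, NDUFA8 holds the NRF1 motif in 2 overlapping copies, from base -4 to base 6 and from base 3 to base 12. NDUFB4 holds it in 3 copies, from base -159 to -150, from -63 to -54 and, across the start site, from -8 to base 2. None of the 4 genes with a C and T run printed above holds any of the 3 motifs in its entry (0 of 4), and most genes lack each motif. Among the members with the layout that were not printed, ATP5PO holds the NRF1 and YY1 motifs and UQCRH the ETS family motif. COX4I1, ATP5MG and NDUFC1 hold none of them. The layout and the motifs can therefore occur in the same entry. A match is a run of letters and shows no binding.

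The difference between the lines was tested directly, as the AFZC effect in SW620 minus that in HCT116. Of the 13 mitochondrial genes 5 had a called difference, all negative, beside 4.14% of all genes called lower and 5.65% called higher. They were MT-ND4L (-1.38 ± 0.29 log2, adjusted p = 0.011), MT-ATP8 (-1.45 ± 0.33, 0.0167), MT-ATP6 (-1.10 ± 0.28, 0.0279), MT-ND4 (-1.16 ± 0.30, 0.0318) and MT-ND2 (-0.92 ± 0.27, 0.0496), all from edgeR. The overlapping pairs MT-ATP8 with MT-ATP6 and MT-ND4L with MT-ND4 were again counted as separate rows. The median of the 13 differences was -0.87, with every one negative (12 of 13 with libraries scaled by totals alone), against 0.037 over all genes. MT-CO3 (-0.86, adjusted p = 0.101) and MT-CYB (-0.87, 0.0995), which fell in SW620, did not pass for the difference. No mitochondrial difference was called positive by edgeR or DESeq2, or was positive at an unadjusted p under 0.05 (0 of 13 in each case), and DESeq2 called 10 negative.

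The per-library values behind these differences were as follows. MT-ND4L was at 1361 and 1164 CPM in HCT116 under AFZC, against 766 and 1107 CPM under 5-FU, and MT-ND4 at 13921 and 11539.8 CPM under AFZC, against 10888 and 10770.2 CPM under 5-FU. MT-ND2, a membrane-arm subunit of complex I, was at 1779.7 and 1707 CPM in SW620 under AFZC, against 2685 and 2124 CPM under 5-FU, and at 3906 and 4236 CPM in HCT116 under AFZC, against 3103 and 2819.7 CPM under 5-FU. The AFZC libraries were thus the lower ones in SW620 and the higher ones in HCT116 for MT-ND2, MT-ND4 and MT-ND4L. The call of MT-ND2 was lost when any 1 of the 8 libraries was left out (adjusted p of 0.0657 to 0.212) and with RLE size factors (0.0535). MT-ATP6 was at 7199 and 6787 CPM in HCT116 under AFZC, against 6186 and 6260.1 CPM under 5-FU. The number of mitochondrial differences called was 2 with libraries scaled by totals alone. It was 2 without the first AFZC library of HCT116, 0 without the first and 1 without the second 5-FU library of HCT116, 2 without the second AFZC library of SW620, and 2 without the first and 1 without the second 5-FU library of SW620, while MT-ND4L lost its call without the first 5-FU library of HCT116 alone (adjusted p = 0.0628). MT-ATP8 lost its call without either 5-FU library of HCT116 (0.0884 and 0.0772) or the second of SW620 (0.0959). MT-ATP6 and MT-ND4 lost theirs without the first AFZC library of HCT116, the second AFZC library of SW620 or any 1 of the 5-FU libraries (0.0556 to 0.125).

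Among the nuclear rows 2 of 77 had a called difference, both negative (2.6%, beside 4.14% of all genes called lower and 5.65% called higher). The median of the 77 differences was -0.27, with 60 negative, beside 0.037 over all genes. Scaled by library totals alone, 31 were negative and their median was 0.087, beside 0.39 over all genes. At an unadjusted p under 0.05 in edgeR, 11 of the 77 were lower and 0 higher, beside 2362 and 2954 of all 21378 genes. SDHB, the iron-sulphur subunit of complex II, was at 70.3 and 73.5 CPM in SW620 under AFZC, against 94.9 and 98.7 CPM under 5-FU, and at 80.5 and 67.3 CPM in HCT116 under AFZC, against 60.2 and 50.8 CPM under 5-FU (difference -0.84 ± 0.22 log2, adjusted p = 0.0292, edgeR). COX7B, a small subunit of complex IV, was at 69.4 and 59.9 CPM in SW620 under AFZC, against 76.7 and 94.4 CPM under 5-FU, and at 44.8 and 43.9 CPM in HCT116 under AFZC, against 31.8 and 31.2 CPM under 5-FU (difference -0.90 ± 0.22 log2, adjusted p = 0.0246, edgeR). Neither gene passed the test in a single line, and in both the treatment groups did not overlap in either line. Scaled by library totals alone, neither difference passed. The call of SDHB was lost without any of the 8 libraries but the second AFZC library of HCT116 and that of SW620 (adjusted p of 0.0605 to 0.137). The call of COX7B was lost without either 5-FU library of HCT116 and without the second AFZC or second 5-FU library of SW620 (0.0559 to 0.147). No nuclear difference was called positive by edgeR or DESeq2 or was positive at an unadjusted p under 0.05 (0 of 77 in each case). The next smallest adjusted p-values were 0.0989 (COX6A1), 0.104 (ATP5PB), 0.105 (COX7A2) and 0.105 (NDUFV2, called by DESeq2 at 0.0496).

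The make-up of the mitochondrial mRNA pool, which no scaling between libraries can move, also differed. MT-ND1 took 3.96% and 4.54% of mitochondrial mRNA counts in SW620 under AFZC, against 3.02% and 2.82% under 5-FU, and 4.14% and 4.21% in HCT116 under AFZC, against 2.87% and 2.96% under 5-FU. Its share was higher under AFZC in both lines, without overlap. MT-CO1 took 36.7% and 35.0% in SW620 under AFZC, against 27.7% and 27.9% under 5-FU, while in HCT116 it took 29.7% and 28.1% under AFZC and 30.3% and 29.8% under 5-FU. MT-ND4 took 15.5% and 14.3% in SW620 under AFZC, against 18.1% and 21.2% under 5-FU, and 14.2% and 13.3% in HCT116 under AFZC, against 12.7% and 13.6% under 5-FU. In SW620, then, MT-CO1 held a larger and MT-ND4 a smaller part of the pool under AFZC, with no overlap, and in HCT116 both differed less. MT-ATP6 took 5.96% and 6.02% in SW620 under AFZC, against 8.08% and 7.68% under 5-FU, and 7.32% and 7.8% in HCT116 under AFZC, against 7.24% and 7.91% under 5-FU. A share within the pool shows unequal change and not which gene changed.

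The lines were then compared under each agent. Under AFZC all 13 mitochondrial genes were lower in SW620 than in HCT116, and under 5-FU 9 of 13 were lower. Of all genes, 24.2% under AFZC and 28.2% under 5-FU were called lower, and 25.1% and 26.5% were called higher. The median log2 fold changes of the 13 were -1.67 under AFZC and -0.85 under 5-FU. The 4 that did not pass under 5-FU were MT-ATP8 (-0.22), MT-ND4L (-0.22), MT-ND4 (-0.28) and MT-ND2 (-0.30), and scaled by library totals alone 12 of 13 were called lower under 5-FU. The count of 13 under AFZC was the same in every alternative run, and no mitochondrial member was called higher in SW620 under either agent by edgeR or DESeq2 or at an unadjusted p under 0.05 (0 of 13 in each case).

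MT-CYB, the only mitochondrial gene of complex III, stood furthest from zero. It was at 673 and 624 CPM in SW620 under AFZC, against 5386 and 5770.0 CPM in HCT116 under AFZC (-3.10 ± 0.24 log2, adjusted p = 3.39e-07, edgeR). Under 5-FU it was at 1512 and 979 CPM in SW620, against 6067 and 5678 CPM in HCT116 (-2.24 ± 0.23 log2, adjusted p = 3.72e-06, edgeR). Its part of the mitochondrial mRNA pool was 1.96% and 2.18% in SW620 under AFZC, against 5.48% and 6.63% in HCT116 under AFZC, and 3.1% and 2.32% in SW620 under 5-FU, against 7.1% and 7.17% in HCT116 under 5-FU. MT-ND6, the one member read from the opposite strand of the mitochondrial chromosome, was next, at 631 and 428 CPM in SW620, against 2284 and 1693 CPM in HCT116 under AFZC (-1.91 ± 0.22 log2, adjusted p = 1.56e-05, edgeR). It was at 598 and 545 CPM in SW620, against 1673 and 1575 CPM in HCT116 under 5-FU (-1.51 ± 0.22 log2, adjusted p = 8.4e-05, edgeR). The lines did not overlap for either gene under either agent. The libraries do not keep strand, so reads of MT-ND6 and of transcripts of the opposite strand cannot be told apart.

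Under each agent the remaining mitochondrial genes lay nearer zero than MT-CYB and MT-ND6. Under AFZC, their log2 fold changes were -1.90 for MT-CO3, -1.89 for MT-ATP6, -1.86 for MT-ND5, -1.71 for MT-ND3 and -1.67 for MT-ATP8. They were -1.60 for MT-ND4L, -1.54 for MT-ND1, -1.46 for MT-CO2, -1.44 for MT-ND4, -1.25 for MT-CO1 and -1.22 for MT-ND2. Under 5-FU, MT-ND3 (-1.13), MT-CO3 (-1.04), MT-CO1 (-0.97), MT-ND5 (-0.96), MT-ND1 (-0.85), MT-ATP6 (-0.79) and MT-CO2 (-0.77) passed the test. The calls under 5-FU of MT-CO2 and MT-ATP6 were lost without the second 5-FU library of SW620 (adjusted p = 0.0963 and 0.0785), and that of MT-CO2 also without the first 5-FU library of HCT116 (0.0560). These comparisons share libraries with those of AFZC against 5-FU, so their values are set side by side and not counted as separate evidence.

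The mitochondrial ribosomal RNAs, transcribed in the same direction as most of these mRNAs, were not called lower in SW620 under either agent. MT-RNR2, the large ribosomal RNA, was at 26162 and 24805 CPM in SW620, against 16761 and 13956 CPM in HCT116 under 5-FU (0.73 ± 0.24 log2, adjusted p = 0.021, edgeR). Under AFZC it was at 20512 and 17927 CPM in SW620 and 19217 and 13236 CPM in HCT116 (0.24 log2, adjusted p = 0.426, edgeR). The call under 5-FU rests on the SW620 libraries with the lowest TMM factors. As a share of library totals, both ribosomal RNAs together took 2.41% and 2.18% in SW620 under 5-FU, against 1.90% and 1.62% in HCT116 under 5-FU. How this call moves with scaling or single libraries is not given here. MT-RNR1, the small ribosomal RNA, differed by 0.19 under AFZC (adjusted p = 0.525) and 0.14 under 5-FU (0.630). Ribosomal over messenger counts of the mitochondrial genome were 0.677 and 0.687 in SW620 under AFZC and 0.569 and 0.634 in SW620 under 5-FU, against 0.215 and 0.175 in HCT116 under AFZC and 0.218 and 0.195 in HCT116 under 5-FU. Poly(A) selection does not recover ribosomal RNA in proportion to its amount, so this ratio describes the libraries.

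A nuclear copy of a mitochondrial stretch on chromosome 1 was counted as separate rows. MTATP6P1, a near-identical copy of MT-ATP6 with a row of 681 bases, was at 448 and 384 CPM in SW620 under AFZC and 899.6 and 728 CPM under 5-FU, and at 1529 and 1505 CPM in HCT116 under AFZC and 1277 and 1283 CPM under 5-FU. Its order over the groups was that of MT-ATP6, and reads of the 2 rows may have been exchanged. All such copy rows together took 0.0633% and 0.0532% of counts in SW620 under AFZC, 0.0936% and 0.071% in SW620 under 5-FU, 0.187% and 0.193% in HCT116 under AFZC and 0.152% and 0.162% in HCT116 under 5-FU. This was a small part beside all mitochondrial mRNA rows together. Most of the copy counts were in MTATP6P1, however, which was not a small part beside MT-ATP6 alone, by the CPM values given above. How far an exchange of reads enters the calls of MT-ATP6 was not tested.

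**Figure D5:**
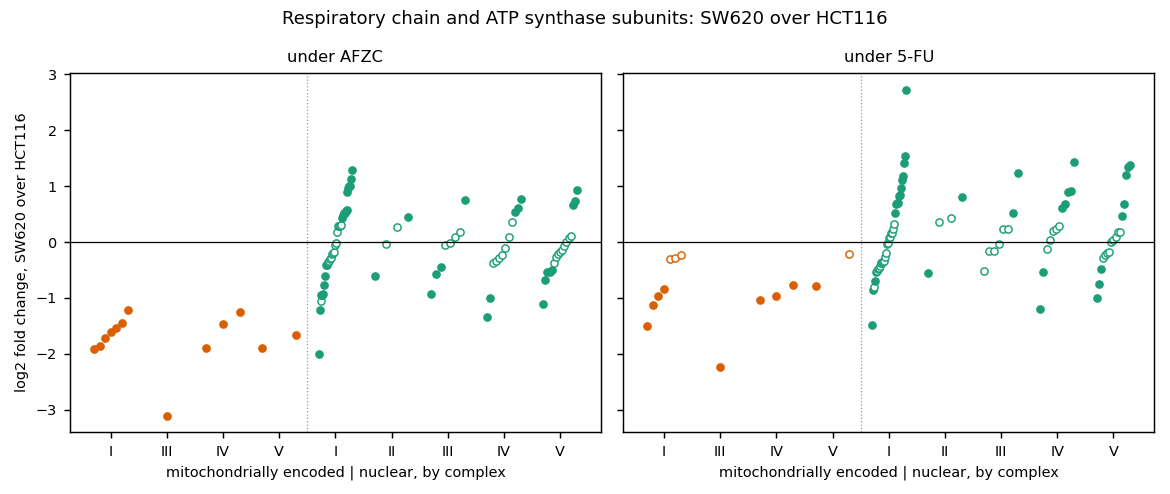
Log2 fold change of SW620 over HCT116 for every tested subunit gene under AFZC (left) and under 5-FU (right), mitochondrially encoded genes in orange and nuclear genes in green, by complex; filled points passed the test (adjusted p under 0.05). Mitochondrial points lie below zero, 13 of 13 filled under AFZC and 9 of 13 under 5-FU, while nuclear points lie on both sides.

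Nuclear subunits were called between the lines in both directions, under AFZC as often as all genes were. Under AFZC 19 of 77 were higher and 19 lower in SW620 (24.7% each way, beside 25.1% of all genes called higher and 24.2% lower), with a median log2 fold change of -0.061. Under 5-FU 25 were higher and 11 lower (32.5% and 14.3%, beside 26.5% and 28.2% of all genes), with a median of 0.10, and scaled by library totals alone 26 were lower. The count lower under 5-FU was 7 without the first 5-FU library of HCT116 and 7 without the second 5-FU library of SW620. By complex under AFZC, 11 of 36 complex I rows were higher and 8 lower, 3 of 12 complex IV rows higher and 2 lower, and 3 of 17 complex V rows higher and 5 lower. Complex III had 1 of 8 higher and 3 lower, and complex II 1 of 4 each way.

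Complex I subunits were called in both directions. NDUFV1, which binds the flavin that accepts electrons from NADH, was at 203 and 189.8 CPM in SW620, against 98.1 and 97.0 CPM in HCT116 under AFZC (1.01 ± 0.14 log2, adjusted p = 7.63e-05, edgeR). NDUFV2, its iron-sulphur partner, was at 10.3 and 9.65 CPM in SW620, against 4.77 and 3.38 CPM in HCT116 under AFZC (1.29 ± 0.37 log2, adjusted p = 0.011, edgeR). Under 5-FU NDUFV2 was at 7.84 and 17.2 CPM in SW620, against 1.5 and 2.27 CPM in HCT116 (2.73 ± 0.39 log2, adjusted p = 7.01e-05, edgeR). The SW620 5-FU libraries disagree for NDUFV2, and without the second of them the change was 2.06. Its call under AFZC was lost without the second AFZC library of HCT116 (adjusted p = 0.0698), and 28.4% of its row overlaps another gene. NDUFA9 (1.0 under AFZC and 1.54 under 5-FU), NDUFA12 (0.97 and 1.11), NDUFB11 (1.13 and 1.18) and NDUFS7 (0.90 and 1.41) were also called higher under both agents. NDUFB11 shares 44.9% of its row with RBM10 and NDUFS7 49.1% with neighbouring rows, so their values are uncertain. ATP5MC2 was higher in SW620 under both agents (0.94 under AFZC and 1.39 under 5-FU), as were COX7B (0.54 and 1.44) and ATP5MG (0.73 and 1.34).

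Among those lower in SW620, COX4I1, the common isoform of the regulatory subunit 4 of complex IV, was at 91.5 and 92.8 CPM in SW620, against 215 and 251 CPM in HCT116 under AFZC (-1.34 ± 0.16 log2, adjusted p = 2.1e-05, edgeR). Under 5-FU it was at 115 and 120.2 CPM in SW620, against 302 and 241 CPM in HCT116 (-1.20 ± 0.16 log2, adjusted p = 4.03e-05, edgeR). NDUFC1, a small accessory subunit of complex I, was at 6.64 and 7.97 CPM in SW620, against 32.3 and 26.4 CPM in HCT116 under AFZC (-2.0 ± 0.24 log2, adjusted p = 2.04e-05, edgeR). For both genes every SW620 library lay below every HCT116 library. ATP5F1A (-1.11 under AFZC and -0.75 under 5-FU), NDUFS5 (-1.22 and -0.70), NDUFV3 (-0.95 and -0.86), COX6C (-0.99 and -0.53) and ATP5MC1 (-0.68 and -1.0) were called lower under both agents. ATP5MC1 and ATP5MC2, which encode the same mature c subunit, differed between the lines in opposite directions, and a link between them was not tested.

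Of the 7 tissue-restricted isoforms, COX7B2 and COX6A2 had 0 counts in all 8 libraries, and COX4I2 and COX8C had too few to test. A count of 0 allows up to 3 counts per library if counts are independent, and more if both mates were counted. COX4I2, the lung and hypoxia isoform of subunit 4, had 0 and 0 counts in SW620 under AFZC, 1 and 0 in SW620 under 5-FU, 0 and 1 in HCT116 under AFZC and 0 and 0 in HCT116 under 5-FU, against at least 91.5 CPM of COX4I1 everywhere. NDUFA4L2, a paralogue of NDUFA4 known to be induced by hypoxia, was at 1.88 and 4.71 CPM in SW620, against 0.556 and 0.804 CPM in HCT116 under AFZC (2.27 ± 0.49 log2, adjusted p = 0.00192, edgeR), and its change was 1.47 without the second AFZC library of SW620. Under 5-FU it was at 4.16 and 4.62 CPM in SW620, against 0.663 and 0.954 CPM in HCT116 (2.44 ± 0.49 log2, adjusted p = 0.00094, edgeR). NDUFA4L2 was therefore a low transcript that was higher in SW620. COX6B2, a testis isoform, was at 7.85 and 11.8 CPM in SW620, against 4.08 and 2.02 CPM in HCT116 under AFZC (1.68 ± 0.45 log2, adjusted p = 0.00829, edgeR), and 30.9% of its row overlaps another gene. That call was lost without the second AFZC library of HCT116 (adjusted p = 0.0588) or of SW620 (0.0512), and the change was 2.27 without the first AFZC library of HCT116. Under 5-FU its change was 1.60 (adjusted p = 0.00997), lost without the second 5-FU library of HCT116 (0.105) or of SW620, where it was 0.92 (0.143). COX7A1, the heart and muscle isoform, was at 0.338 and 0.251 CPM in SW620 under AFZC, 0.722 and 0.392 CPM in SW620 under 5-FU, 0.291 and 0.388 CPM in HCT116 under AFZC and 0.807 and 0.449 CPM in HCT116 under 5-FU, and passed no test. None of these isoforms was called between AFZC and 5-FU, nor were UQCRHL, NDUFV2-AS1 and NDUFA6-DT, whose adjusted p-values were 0.119, 0.718 and 0.774 in SW620. NDUFB2-AS1, NDUFC2-KCTD14 and ATP5MF-PTCD1 had too few counts to test.

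Genes that build and supply the respiratory chain were taken as 12 further lists with 154 genes. Their counts are to be read against all genes, of which 11.6% were called higher and 6.95% lower in SW620, and 5.87% higher and 3.74% lower in HCT116. In SW620, replication of mitochondrial DNA had 3 of 14 genes higher (21.4%) and 1 lower (7.14%), among them DNA2, a nuclease and helicase of mitochondrial and nuclear DNA, and PRIMPOL, which restarts stalled replication forks in both. DNA2 was at 49.6 and 46.2 CPM in SW620 under AFZC, against 13.5 and 12.0 CPM under 5-FU (1.91 ± 0.21 log2, adjusted p = 8.8e-05, edgeR), and at 15.9 and 19.5 CPM in HCT116 under AFZC and 14.2 and 19.9 CPM under 5-FU (0.051 log2). PRIMPOL was at 11.4 and 12.4 CPM in SW620 under AFZC, against 3.99 and 3.65 CPM under 5-FU (1.64 ± 0.25 log2, adjusted p = 0.000863, edgeR), and changed by 0.15 in HCT116. In HCT116 2 genes of this list rose and 1 fell, and the named risers were POLG, the mitochondrial DNA polymerase (0.58, adjusted p = 0.0402), and SLC25A33, a pyrimidine nucleotide carrier (0.78, 0.0312). Neither passed in SW620 (0.954 and 0.181).

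The 25 genes that transcribe, process and translate mitochondrial DNA gave no call in either line in edgeR (0 of 25), with medians of -0.063 in SW620 and -0.0061 in HCT116. At an unadjusted p under 0.05, 4 were lower and 0 higher in SW620, and 0 lower and 1 higher in HCT116, and DESeq2 called 1 lower in SW620 and 0 in HCT116. Among regulators of mitochondrial biogenesis, ESRRA, the estrogen-related receptor alpha, was at 85.5 and 119 CPM in SW620 under AFZC, against 137 and 159 CPM under 5-FU (-0.54 log2, adjusted p = 0.0544, edgeR). It was at 100.5 and 89.2 CPM in HCT116 under AFZC, against 61.6 and 52.0 CPM under 5-FU (0.74 ± 0.18 log2, adjusted p = 0.0224, edgeR). The groups did not overlap in either line, with AFZC the higher in HCT116 and the lower in SW620. NFE2L2, the regulator of antioxidant genes, fell in SW620 (-0.46, adjusted p = 0.0401) and was the only call of 11 tested there, as ESRRA was in HCT116. The median log2 fold change of the 11 was -0.35 in SW620, beside 0.026 over all genes, and 0.015 in HCT116.

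Single assembly factors were called. For complex I, 2 of 19 rose (10.5%, beside 11.6% of all genes) and 3 fell (15.8%, beside 6.95%) in SW620, and 1 rose in HCT116 (5.26%, beside 5.87%): NDUFAF8 rose in both, to 25.0 and 37.9 CPM in SW620 under AFZC, against 21.2 and 18.1 CPM under 5-FU (0.68 ± 0.20 log2, adjusted p = 0.0346, edgeR). In HCT116 NDUFAF8 was at 73.0 and 66.4 CPM under AFZC, against 30.8 and 27.0 CPM under 5-FU (1.27 ± 0.20 log2, adjusted p = 0.00252, edgeR). ECSIT (-0.71, adjusted p = 0.0186) and NUBPL, which inserts iron-sulphur clusters (-0.80, 0.043), fell in SW620. Of 22 complex IV factors, the 1 called in SW620 was TACO1, the translational activator of MT-CO1 (0.71, adjusted p = 0.0325), and in HCT116 it was the copper chaperone COX17 (0.85, 0.0232). UQCC2 was the 1 of 6 complex III factors called, rising in SW620 (0.77, 0.0124). ATPAF1, which binds the beta subunit during assembly of complex V, was the 1 of 4 complex V factors called, falling in HCT116 (-0.63, 0.0382). Of the 4 complex II factors none was called in either line in edgeR or DESeq2 (0 of 4), with 0 at an unadjusted p under 0.05 in SW620 and 1 lower in HCT116. Of 4 further components whose symbols the name rule misses (CYC1, CYCS, NDUFAB1 and ATP5IF1), ATP5IF1, the inhibitor of ATP hydrolysis by complex V, rose in HCT116 (0.51, 0.047), and none was called in SW620 (0 of 4 in edgeR, in DESeq2 and at an unadjusted p under 0.05).

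In coenzyme Q synthesis 2 of 13 genes rose in each line (15.4%, beside 11.6% of all genes in SW620 and 5.87% in HCT116). COQ10A (1.17, adjusted p = 0.0047) and COQ2, which attaches the isoprenoid tail (0.84, 0.0398), rose in SW620, and COQ10B (0.73, 0.0152) and COQ8A (0.62, 0.0439) in HCT116. In the citric acid cycle 3 of 13 fell in SW620 (23.1%, beside 6.95% of all genes, median -0.20), and 1 rose and 1 fell in HCT116 (median 0.056). SUCLG2, the GTP-forming subunit of succinyl-CoA ligase, fell in both, with 28.7 and 29.5 CPM in SW620 under AFZC, against 53.8 and 55.7 CPM under 5-FU (-0.91 ± 0.16 log2, adjusted p = 0.00191, edgeR), and 28.4 and 24.5 CPM in HCT116 under AFZC, against 42.9 and 38.8 CPM under 5-FU (-0.63 ± 0.16 log2, adjusted p = 0.0257, edgeR). Its partner SUCLG1 fell in SW620 (-0.53, 0.0397), and IDH3A, the catalytic subunit of the NAD-dependent isocitrate dehydrogenase, rose in HCT116 (0.91, 0.00457). Of 18 mitochondrial chaperones and proteases 4 fell in SW620 (22.2%, beside 6.95% of all genes), among them the chaperonin HSPD1 (-0.74, 0.0172) and the stress protease OMA1 (-0.96, 0.0279), and in HCT116 CLPX rose (0.55, 0.0289) and PHB2 fell (-0.68, 0.0246). PHB2, a scaffold protein of the inner membrane, also fell in SW620, with 264 and 318 CPM under AFZC, against 463 and 461 CPM under 5-FU (-0.67 log2, adjusted p = 0.0168, edgeR).

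Single libraries and the scaling decided most calls in these lists. With libraries scaled by their totals alone, the SW620 falls of NFE2L2 (-0.088, adjusted p = 0.703), SUCLG1 (-0.15, 0.522), NUBPL (-0.43, 0.241), ECSIT (-0.34, 0.221), HSPD1 (-0.36, 0.170), OMA1 (-0.59, 0.134) and PHB2 (-0.29, 0.213) no longer passed, and that of SUCLG2 did (-0.54, 0.0236). In HCT116 the call of ATP5IF1 was lost with RLE size factors (0.0518), with scaling without mitochondrial rows (0.0529) and with no low-count filter (0.0624). DNA2, PRIMPOL and SUCLG2 kept their SW620 calls without each library in turn. In SW620, NUBPL, NFE2L2 and SUCLG1 lost theirs when any 1 of the 4 libraries was left out (adjusted p of 0.0618 to 0.236), and ECSIT, OMA1, HSPD1 and PHB2 without the first AFZC library or either 5-FU library (0.0660 to 0.131). COQ2 and NDUFAF8 lost theirs without the second AFZC library or either 5-FU library (0.0746 to 0.274), UQCC2 without either 5-FU library (0.0787 and 0.0834), TACO1 without the second AFZC or second 5-FU library (0.121 and 0.314) and COQ10A without the second 5-FU library (0.0540). In HCT116, ATP5IF1, ATPAF1, COQ8A and SUCLG2 lost theirs when any 1 of the 4 libraries was left out (0.0504 to 0.306). COX17, SLC25A33, POLG, ESRRA, COQ10B, PHB2 and CLPX lost theirs without the first AFZC library or either 5-FU library (0.0619 to 0.308), IDH3A without the first 5-FU library (0.0891) and NDUFAF8 without the second (0.0501).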

How the data were processed

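RNA of the 8 libraries was selected for poly(A) tails and sequenced without strand, per the labels' protocols. The authors deposited raw read counts per gene, with gene lengths, in a single table. The build was GRCh38, per the submitters' processing notes, which list, without roles, STAR, HISAT2, featureCounts, edgeR, DESeq2, FastQC, cutadapt and Trimmomatic. The treatment of reads with several matches is not given in the sources used here, and it bears on genes with near-identical copies. The number of genes with exactly 2 counts was 1.68 to 1.84 times that of genes with exactly 1, a pattern of tables in which both mates are counted, so precision by counting is lower than the counts state.

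Counts were filtered with filterByExpr (minimum count 10), scaled by TMM and tested with edgeR 4.0.16 (limma 3.58.1, R 4.3.3, with the package data.table, version 1.17.8) by the robust quasi-likelihood test, 2-sided, with 4 group means over 8 libraries and 4 residual degrees of freedom. P-values were adjusted by Benjamini-Hochberg over all 21378 genes tested, with a threshold of 0.05. Levels are TMM-scaled CPM, folds are on the log2 scale of the fit, and the common dispersion gave a coefficient of variation of 19.9%. The steps were tested on simulated data. Libraries of a group differed by more than sampling noise (their chi-square was 23.3 to 58.7 times its degrees of freedom). Same-numbered libraries of different groups had correlations of -0.10 to 0.095 in their deviations, so the numbers were not used as pairs. Alternatives were RLE size factors, library totals, scaling without mitochondrial rows, no filter, DESeq2 1.42.0, a replicate block, 1 line alone and leaving out each library. Tables and figures used Python 3.11.15, pandas 2.3.3, numpy 2.4.6 and matplotlib 3.10.9.

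Members and lists were chosen with earlier results of these data known. MT-ATP6 and MT-ATP8 end in P and a digit but are genes and were kept, and all 104 members matched the GENCODE 29 annotation by symbol and position. Named were all mitochondrial members, in each comparison the 6 largest called rises and falls among nuclear subunits, the nuclear subunit with most counts per kilobase in each complex, all isoforms, the 2 largest called changes per list and treatment comparison, and up to 6 nuclear subunits with the smallest p for the difference between lines. ATP5F1A, NDUFB4, NDUFAF8 and PHB2 in SW620, and list genes in the difference between lines, were added after their values were seen. The MT-ATP8 sequence comes from the GENCODE transcripts and the start-site windows from RefSeq.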

Additional observations from a re-analysis of the deposited data

Results flagged for a closer look

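For 12 genes the effect of AFZC against 5-FU differed between the lines by the test of the difference itself (SW620 minus HCT116, edgeR quasi-likelihood, adjusted p under 0.05). Of the members, MT-ATP8 differed by -1.45, MT-ND4L by -1.38, MT-ND4 by -1.16, MT-ATP6 by -1.10, MT-ND2 by -0.92, COX7B by -0.90 and SDHB by -0.84 on the log2 scale. COX7B changed by -0.40 in SW620 and 0.49 in HCT116, and SDHB by -0.43 and 0.41, with no single-line value past the threshold.

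Of the list genes, the difference was 1.86 for DNA2 (adjusted p = 0.00227), 1.49 for PRIMPOL (0.0176), 0.91 for ATPAF1 (0.035), -1.03 for COQ10B (0.0153) and -1.28 for ESRRA (0.00818), all from edgeR. DNA2 was the only one of the 12 whose call held without each of the 8 libraries in turn. ESRRA lost its call without 1 library (adjusted p = 0.0593), COQ10B without 3 (0.0611 to 0.0848), PRIMPOL without 4 (0.0578 to 0.0779) and ATPAF1 without 6 (0.0735 to 0.162). No cause was tested for any of them.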

How the results depend on the processing

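The counts of called members that moved by more than 1.5 times did so mainly with library scaling and with single libraries, and the cause was not tested. Scaled by library totals alone, SW620 had 1 mitochondrial member called lower, 9 nuclear members higher and 4 lower, the difference between lines had 2 mitochondrial and 0 nuclear members called lower, and SW620 against HCT116 under 5-FU had 26 nuclear members called lower. Over all genes the difference had 2455 called higher and 431 lower with that scaling, beside 1208 and 884. With no low-count filter, HCT116 had 2 mitochondrial members higher and 1 nuclear member higher and 6 lower, SW620 had 2 nuclear members higher, and the difference had 8 mitochondrial members lower. DESeq2 gave 2 mitochondrial members higher, 1 nuclear member higher and 5 lower in HCT116, 2 nuclear members higher in SW620 and 10 mitochondrial members lower for the difference, and SW620 fitted alone gave 2 nuclear members higher. Leaving out 1 library gave 2 to 6 mitochondrial and 4 to 7 nuclear members lower and 0 to 2 nuclear members higher in SW620. In HCT116 it gave 0 to 1 mitochondrial members higher and 0 to 3 nuclear members lower. For the difference it gave 0 to 5 mitochondrial and 0 to 2 nuclear members lower, and between lines under 5-FU 7 to 13 nuclear members lower. RLE size factors and scaling without mitochondrial rows moved no count past 1.5 times, and the 13 mitochondrial members lower in SW620 under AFZC remained 13 throughout. With the replicate block, HCT116 had 2 nuclear members lower and the difference 4 mitochondrial members lower, and no other count of called mitochondrial members changed. The libraries share only a number, so the block stands for no pairing. From raw counts in place of counts per kilobase, the log2 ratio of mitochondrial to nuclear members was 2.60 in SW620 under AFZC (main value 3.83), 2.80 in SW620 under 5-FU (4.15), 4.12 in HCT116 under AFZC (5.35) and 3.92 in HCT116 under 5-FU (5.23). With mitochondrial rows left out of the total, the nuclear share was 0.597% in SW620 under AFZC, 0.584% in SW620 under 5-FU, 0.634% in HCT116 under AFZC and 0.630% in HCT116 under 5-FU, and the mitochondrial share in HCT116 was 11.0% under AFZC and 9.50% under 5-FU. Of the refits of named genes, 1742 kept their side of the threshold, 210 fell below it, 24 passed it and 0 called values changed sign. With 2 libraries a group, changes smaller than those named may go uncalled, and library totals of 31991561 to 40590291 counts leave isoforms with a few counts untestable.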
